A study of Mus musculus with 12 samples.

Results

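Interferon-stimulated genes are the genes that cells switch on after an interferon binds its receptor, and they were followed here in nuclei from mouse lung. Members were taken by name from a list of 39 genes of the type I interferon response, of which 38 had a row among the 31053 genes measured, while Mx2 was not analysed here. Lungs came from 12 C57BL/6J mice, each giving 1 library of single nuclei, and the 4 groups held 3 mice each. Mice were 7 weeks old when they received either PBS or bleomycin (1.2 U/kg), an injurious agent used to model lung fibrosis, into the trachea. From day 5 they were given NVP-BHG712, an inhibitor of the receptor tyrosine kinase EphB4, or its vehicle by mouth for 5 days, and lungs were taken on day 14. The groups are called PBS_vehicle, PBS_NVP, Bleo_vehicle and Bleo_NVP, and the experiment asked what inhibition of EphB4 changes in the injured lung.

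Type I interferons signal through a receptor pair and the kinases Jak1 and Tyk2. Stat2 and Irf9 act downstream of them in a complex that switches on genes whose promoters carry an interferon-stimulated response element (ISRE). The products include sensors of foreign nucleic acid, enzymes that degrade viral RNA or block its translation, the ubiquitin-like protein Isg15 and the ligases and proteases that attach and remove it. In the lung, epithelium, endothelium and macrophages can all mount this response.

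The ISRE core was searched as GAAANNGAAA, or TTTCNNTTTC on the other strand, from 250 bases before to 50 bases after each RefSeq gene start (GRCm38.p6). It was present in at least 1 window of 14 of the 30 members with such a window (46.7%) and of 1079 of 27025 genes in all (3.99%). Counted by window, it was present in 15 of 37 member windows (40.5%) and in 1131 of 32851 windows overall (3.44%). The stretches below are shown because these members return in the results, or because they are the best known of the IFIT genes. Capitals mark the matches, and each stretch is written 5′ to 3′ on the strand of its gene.
Rsad2, chr12:26456543-26456592, minus strand: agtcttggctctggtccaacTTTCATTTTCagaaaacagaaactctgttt
Isg15, chr4:156200855-156200916, minus strand: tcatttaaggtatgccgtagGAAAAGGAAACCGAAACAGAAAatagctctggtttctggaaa
Ifit1, chr19:34640765-34640833, plus strand: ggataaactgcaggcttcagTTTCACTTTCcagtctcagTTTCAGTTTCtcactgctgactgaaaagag
Ifit3, chr19:34583353-34583436, plus strand: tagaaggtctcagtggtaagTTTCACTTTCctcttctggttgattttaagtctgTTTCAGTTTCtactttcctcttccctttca
Trim30a, chr7:104465200-104465249, minus strand: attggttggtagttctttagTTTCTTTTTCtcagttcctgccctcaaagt
The Isg15 stretch held 3 overlapping matches, and those of Ifit1 and Ifit3 held 2 each. No match was found in the windows of Oasl2, Ifit2 and Trim25, which also return below. A match is a description of these letters and does not show that a factor binds there.

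Of 49163 barcodes 44611 nuclei were kept, and library totals ran from 3556084 to 61947690 unique molecular identifiers (UMIs, each a captured RNA molecule), all before filtering. The 3 Bleo_vehicle libraries stood apart: their median share of mitochondrial UMIs was 2.56%, 1.32% and 0.668%, against at most 0.0496% in the other 9. The labels also give them batch numbers 6, 6 and 7, Bleo_NVP run number 4 throughout, PBS_vehicle runs 1, 2 and 2 and PBS_NVP runs 1, 2 and 3, so that group and run or batch cannot be told apart in any comparison with a bleomycin group. No more than 32 barcodes were shared by any pair of libraries. Nuclei were clustered without the members, and 18 classes were named from markers (read as AT1-like, club-like and so on). The 5 immune classes together held 16.9 to 29.6% of nuclei in Bleo_vehicle, against 8.91 to 12.5% in PBS_vehicle, 10.2 to 15.1% in PBS_NVP and 8.13 to 13.2% in Bleo_NVP.

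In the whole lung after bleomycin, Oasl2 was the 1 member that rose. The strongest fitted differences were those of Isg15, Rsad2, Zbp1, Oas2 and Mx1, which did not pass the test. UMIs of all nuclei were summed per library and tested with edgeR's quasi-likelihood test, and a gene is called where its Benjamini-Hochberg adjusted p over all 14437 genes tested is under 0.05. Of the 38 members 37 were tested, and Oas3 was too low. A gene was tested if 3 or more libraries reached the minimum level, and 4 members (Rsad2, Isg15, Zbp1 and Isg20) reached it only through Bleo_vehicle, so counts and medians over the 37 describe them and support nothing. In a summed library, fewer nuclei of a type and less RNA per nucleus cannot be told apart. Between Bleo_vehicle and PBS_vehicle 2.43% of all genes were called, and 1 of 37 members. The member count is near the share of all genes, so nothing is read from it about the members as a set. At an unadjusted p under 0.05 there were 12 of 37 members and 18.5% of all genes. The members' median log2 change was 0.31 against 0.0054 over all genes, and 29 of 37 were positive (26 with plain library totals in place of TMM scaling, a correction for a few abundant genes).

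Oasl2 (chr5:114896936-114912234, plus strand) encodes a protein related to the oligoadenylate synthetases. Its level in CPM (UMIs scaled to the same total in every library, here with TMM-scaled library sizes) was 19.7, 15.2 and 14.2 in PBS_vehicle, 18.2, 17.1 and 19.7 in PBS_NVP, 30.4, 27.0 and 27.0 in Bleo_vehicle, and 14.8, 16.2 and 18.1 in Bleo_NVP. Each Bleo_vehicle library lay above the 9 others, which overlapped. The log2 change after bleomycin was 0.76 (SE 0.16, edgeR adjusted p = 0.033). It was as large without immune nuclei (0.74, edgeR adjusted p = 0.045), and with a limit of 1% mitochondrial UMIs it was 0.62 and no longer called (edgeR adjusted p = 0.10). The call also ended when any 1 of 8 libraries was left out (named by group and replicate: PBS_vehicle 2 and 3, PBS_NVP 2, Bleo_vehicle 1 and 2 and each Bleo_NVP library), with log2 changes from 0.67 to 0.92 over all 12 omissions.

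After bleomycin, NVP-BHG712 went with lower levels of Oas2 and Oasl2. Rsad2 was called as well, but it entered the test only through Bleo_vehicle, where it was high, so its call is a description. Between Bleo_NVP and Bleo_vehicle 5.56% of all genes were called and 3 of 37 members, all lower in Bleo_NVP. This count too is near the share of all genes, and nothing is read from it about the members as a set. At an unadjusted p under 0.05 there were 15 members and 25.7% of all genes. The members' median log2 difference was -0.42, against -0.049 over all genes, and 4 of 37 were positive. The comparison shares the Bleo_vehicle libraries with the one above.

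Rsad2 (chr12:26442746-26456452, minus strand) encodes viperin, which makes a chain-terminating nucleotide that stops viral polymerases. It was at 0.976, 0.987 and 0.424 CPM in PBS_vehicle, 1.28, 0.907 and 0.855 in PBS_NVP, 2.99, 5.0 and 2.28 in Bleo_vehicle, and 0, 0.15 and 0.578 in Bleo_NVP. The Bleo_vehicle libraries were above all others. Behind these values were 12, 66 and 108 UMIs in Bleo_vehicle and 0, 1 and 3 in Bleo_NVP, so that the pooled ratio of Bleo_NVP to Bleo_vehicle was 0.087 with a 95% interval of 0.024 to 0.23, which covers counting error only. Rsad2 passed the filter on low counts only through Bleo_vehicle, where it was high, so the tests below describe these counts and support nothing. The fitted log2 difference was -3.66 (SE 0.66, edgeR adjusted p = 0.012). With no such filter, on the same counts, it was -3.69 (edgeR adjusted p = 0.0073), and it stayed called at 1% mitochondrial UMIs (-3.65, edgeR adjusted p = 0.023). Without Bleo_NVP 1 or without Bleo_NVP 2 the call ended, at log2 differences of -3.29 each. The difference of Bleo_vehicle from PBS_vehicle was 1.99 (SE 0.50, edgeR adjusted p = 0.056).

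Oas2 (chr5:120730333-120749853, minus strand) encodes an oligoadenylate synthetase, whose product activates an RNase that cuts viral RNA. Its level was 2.52, 6.35 and 1.91 CPM in PBS_vehicle, 4.06, 4.67 and 2.05 in PBS_NVP, 15, 8.71 and 6.22 in Bleo_vehicle and 1.18, 3.15 and 1.73 in Bleo_NVP. Bleo_NVP lay below Bleo_vehicle in every library, whereas 1 PBS_vehicle library reached into the Bleo_vehicle range. The log2 difference of Bleo_NVP from Bleo_vehicle was -2.18 (SE 0.54, edgeR adjusted p = 0.039), and Oasl2 differed by -0.77 (SE 0.17, edgeR adjusted p = 0.023). Without immune nuclei Oas2 stood at -1.70 and was not called (edgeR adjusted p = 0.076), while Oasl2 stood at -0.80 (edgeR adjusted p = 0.029). With the 1% mitochondrial limit neither passed (edgeR adjusted p = 0.075 for Oas2 and 0.074 for Oasl2). Both calls also ended without any 1 of Bleo_vehicle 1, Bleo_vehicle 2 and the 3 Bleo_NVP libraries, and that of Oas2 without PBS_NVP 2, with log2 differences of -2.68 to -1.80 for Oas2 and -0.85 to -0.72 for Oasl2 over all 12 omissions.

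**Figure D1:**
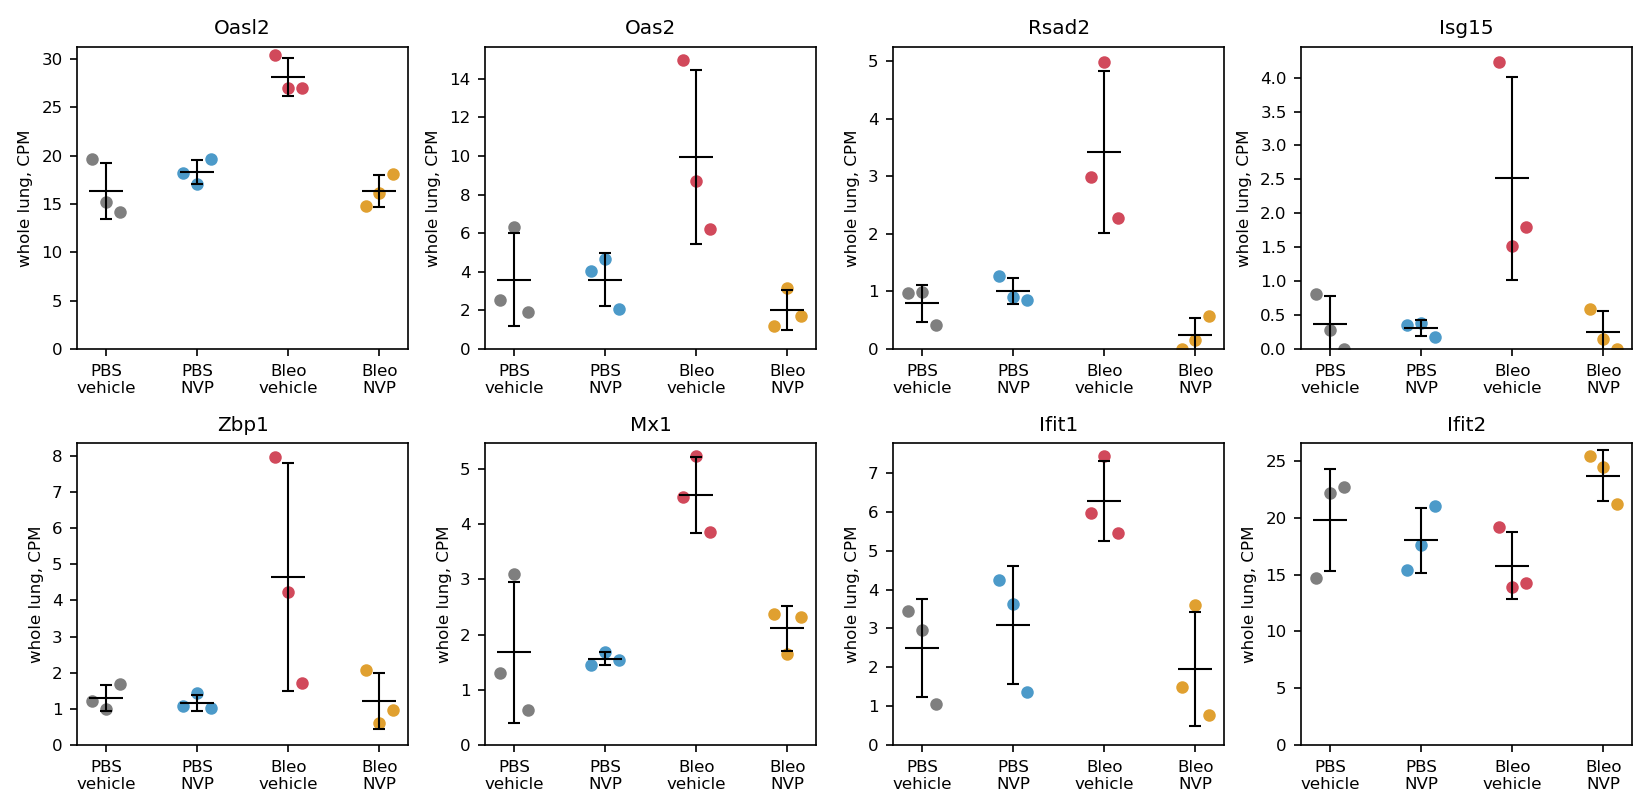
Whole-lung level of 8 members in each library, in CPM (TMM-scaled), by group. Points are libraries (3 per group), lines are the mean ± SD, and the lower bars are cut at 0. The Bleo_vehicle libraries are above all others for Oasl2, Rsad2, Isg15, Mx1 and Ifit1, but not for Ifit2.

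By role, no sensor passed the test in either comparison. The sensors (Ifih1, Ddx58, Dhx58, Zbp1 and the RNA-activated kinase Eif2ak2) had median log2 differences of 0.23 after bleomycin and -0.43 between Bleo_NVP and Bleo_vehicle. Zbp1, which senses Z-form nucleic acid, was at 1.22, 0.987 and 1.70 CPM in PBS_vehicle, 7.97, 4.24 and 1.71 in Bleo_vehicle and 2.07, 0.599 and 0.963 in Bleo_NVP. Its log2 differences were 1.76 (SE 0.56, edgeR adjusted p = 0.119) and -1.94 (SE 0.61, edgeR adjusted p = 0.077). Zbp1 passed the filter on low counts only through Bleo_vehicle, so these tests describe its counts and support nothing. The 4 transcription factors Irf1, Irf7, Irf9 and Stat2 had medians of 0.28 and -0.41, with none called.

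Of the 6 IFIT and OAS members tested, Oasl2 rose after bleomycin and Oas2 and Oasl2 were lower with NVP-BHG712, and their medians were 0.78 and -1.20. All 6 had an unadjusted p under 0.05 by edgeR between Bleo_NVP and Bleo_vehicle (25.7% of all genes), 5 of them lower in Bleo_NVP and 1, Ifit2, higher. Ifit1, which binds viral RNA lacking a normal cap, was at 3.46, 2.96 and 1.06 CPM in PBS_vehicle, 5.98, 7.42 and 5.44 in Bleo_vehicle and 1.48, 3.60 and 0.77 in Bleo_NVP. Its differences were 1.24 (SE 0.51, edgeR adjusted p = 0.214) and -1.61 (SE 0.55, edgeR adjusted p = 0.098). Oas3 was not tested, and its 117 UMIs in Bleo_vehicle, 11 in PBS_vehicle and 2 in Bleo_NVP gave a pooled ratio of Bleo_NVP to Bleo_vehicle of 0.070 (95% interval 0.0083 to 0.26, counting error only). Ifit3 and Oas1a have near-identical copies in the mouse genome, so their counts are uncertain.

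Ifit2 (chr19:34550694-34576419, plus strand), which binds AU-rich viral and cellular RNA, went against the rest of its group. It stood at 14.7, 22.1 and 22.7 CPM in PBS_vehicle, 15.4, 17.6 and 21.0 in PBS_NVP, 19.2, 13.9 and 14.2 in Bleo_vehicle and 25.5, 24.4 and 21.2 in Bleo_NVP. Its log2 differences were -0.33 after bleomycin (edgeR adjusted p = 0.426) and 0.60 between Bleo_NVP and Bleo_vehicle (edgeR adjusted p = 0.108).

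Among the ISG15 system and the ubiquitin ligases the medians were 0.33 and -0.30, with none called. Isg15 itself (chr4:156199424-156200818, minus strand) was at 0.813, 0.282 and 0 CPM in PBS_vehicle, 0.356, 0.389 and 0.171 in PBS_NVP, 4.24, 1.51 and 1.79 in Bleo_vehicle and 0.592, 0.15 and 0 in Bleo_NVP. All Bleo_vehicle libraries were above the rest, and the fitted differences were 2.18 (SE 0.70, edgeR adjusted p = 0.124) and -3.45 (SE 0.95, edgeR adjusted p = 0.055). Isg15 passed the filter on low counts only through Bleo_vehicle, so these tests describe its counts and support nothing. With 3 UMIs in Bleo_NVP against 122, its pooled ratio was 0.10 (95% interval 0.020 to 0.30, counting error only). Trim25, a ligase that activates the RNA sensor RIG-I, was at 192, 111 and 66.7 CPM in Bleo_vehicle, and every PBS library lay between 68.7 and 89.1, so that replicate 1 set its mean. Usp18, the protease that removes Isg15, stood at 0.33 and -0.19.

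The GTPases had medians of -0.08 and -0.35, and Mx1 was at 1.30, 3.10 and 0.636 CPM in PBS_vehicle, 4.49, 5.23 and 3.86 in Bleo_vehicle and 2.37, 1.65 and 2.31 in Bleo_NVP. The difference after bleomycin did not pass (log2 1.41, SE 0.42, edgeR adjusted p = 0.099). The ADP-ribosyltransferases Parp9, Parp12 and Parp14 had medians of 0.20 and -0.07. The 9 other effectors had medians of 0.24 and -0.29, with Rsad2 the 1 call, under the limit given above.

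Counting libraries rather than fitting, every Bleo_vehicle library was above every PBS_vehicle library for 10 of 37 members (11.3% of all genes). These were Isg15, Rsad2, Zbp1, Mx1, Ifit1, Oas1a, Oasl2, Parp9, Eif2ak2 and Ddx58. No member was below in every library (9.0% of all genes). Between Bleo_NVP and Bleo_vehicle 13 members were lower in every library (17.2% of all genes) and 1, Ifit2, was higher (15.7%). The 13 were Trim30a, Eif2ak2, Parp9, Xaf1, Oasl2, Ifit3, Mx1, Dhx58, Oas1a, Ifit1, Oas2, Isg15 and Rsad2. Isg15, Rsad2 and Zbp1 passed the filter on low counts only through Bleo_vehicle. Both counts of libraries therefore describe the members and support nothing.

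**Figure D2:**
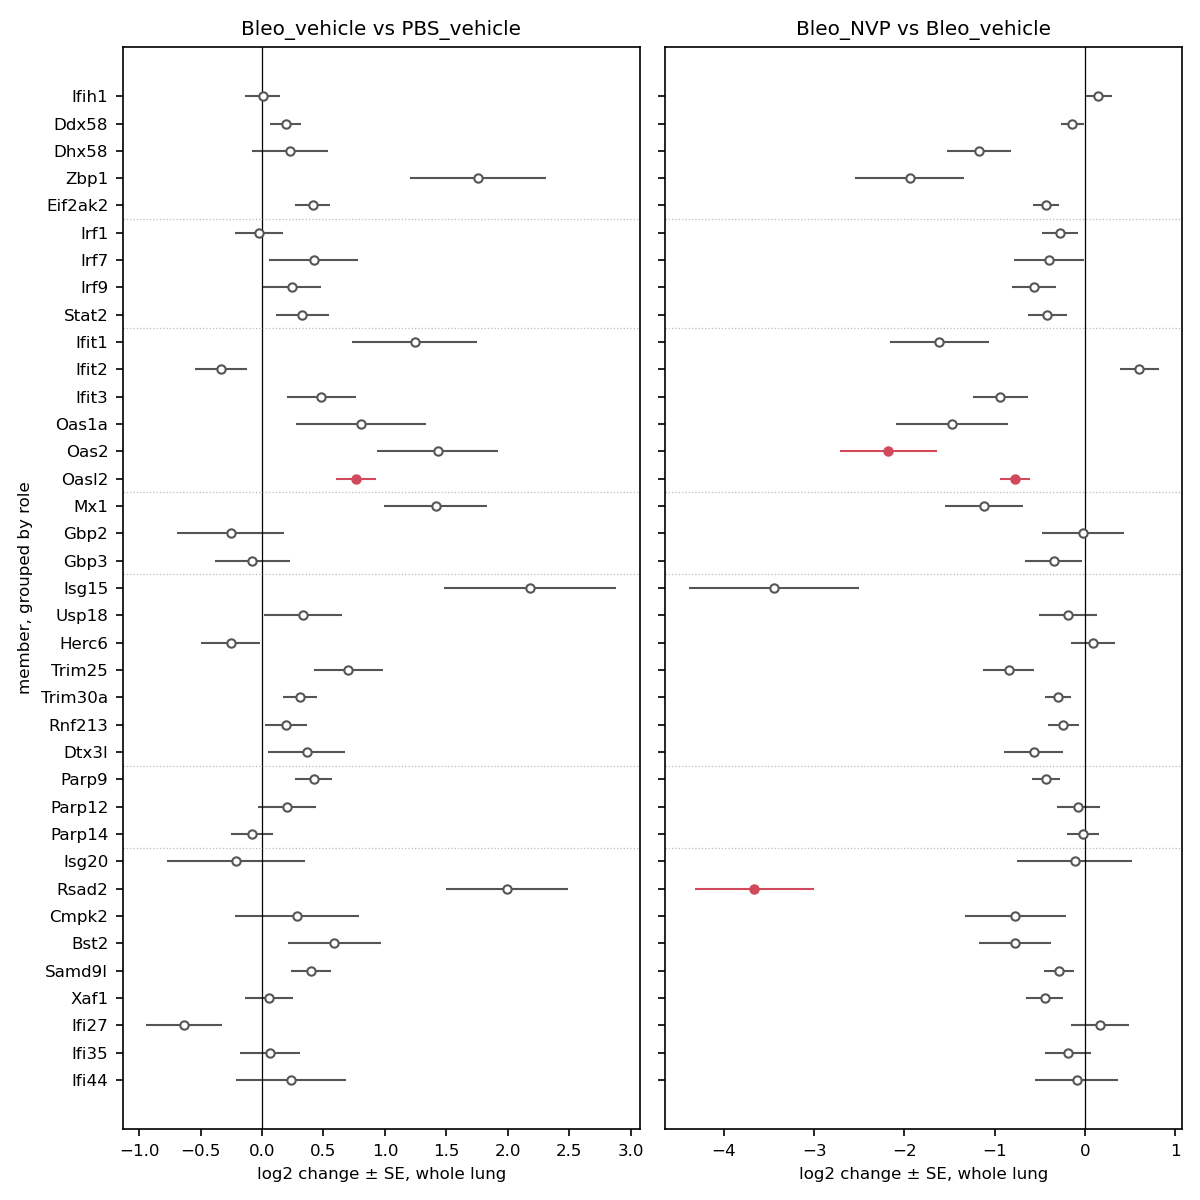
Fitted whole-lung log2 difference (x axis) of the 37 tested members, grouped by role, between Bleo_vehicle and PBS_vehicle (left) and between Bleo_NVP and Bleo_vehicle (right). Points are estimates, bars are ± 1 SE, and red marks an adjusted p under 0.05, which 1 member passed on the left and 3 on the right.

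In uninjured lung NVP-BHG712 went with no called member. Between PBS_NVP and PBS_vehicle edgeR called 0% of genes, 0.284% (41 genes) had an unadjusted p under 0.05, and no member did, nor did DESeq2 call a member. That share is below what the cut-off itself gives without any difference. This unpaired fit could thus find little, and its lack of calls does not show a lack of change. A fit of all 12 libraries with replicate number as a block also called no member. The PBS libraries were not fitted alone with that block. The largest differences were -0.59 for Isg15, 0.39 for Irf7, 0.31 for Rsad2, -0.31 for Gbp3 and 0.28 for Ifit1. Within run 1, Oasl2 was 19.7 CPM in PBS_vehicle and 18.2 in PBS_NVP, and within run 2 it was 15.2 and 14.2 against 17.1.

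Between Bleo_NVP and PBS_NVP 0% of genes were called by edgeR as well. Unadjusted p-values under 0.05 were seen for 2.77% of genes and for 3 members, Rsad2, Xaf1 and Dhx58, and DESeq2 called no member. The share of 2.77% is below what the cut-off itself gives without any difference. This fit too could find little, and its lack of calls does not show a lack of change. The largest differences were -1.99 for Rsad2, -0.78 for Oas2, -0.78 for Dhx58, -0.67 for Isg15 and -0.67 for Cmpk2. The median over members was -0.12 against -0.011 over all genes, and with plain totals these were -0.24 and -0.12, a shift of both.

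The interaction, which is the difference of the NVP-BHG712 effect after bleomycin from that after PBS, was called for 0.298% of genes and for no member. At an unadjusted p under 0.05 there were 9 members and 14.4% of all genes, and DESeq2 called 1 member. Rsad2 had the largest value (-3.98, SE 0.86, edgeR adjusted p = 0.087), followed by Isg15 (-2.85), Oas2 (-2.22), Ifit1 (-1.89) and Zbp1 (-1.82), with edgeR adjusted p-values from 0.242 to 0.351 for these 4. Rsad2, Isg15 and Zbp1 passed the filter on low counts only through Bleo_vehicle, so their values are descriptions and support nothing.

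Other genes of the pathway were set beside the members. Of 15 interferon ligands and receptors 6 were expressed enough to test, all of them receptor chains, and none was called in either comparison with Bleo_vehicle. None of the 9 JAK-STAT and feedback genes was called. The feedback inhibitor Socs3 had the largest values in that list (1.94, edgeR adjusted p = 0.149, and -2.19, edgeR adjusted p = 0.090). None of 12 tested nucleic acid sensing genes was called either.

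Of 21 tested other interferon-induced genes, Slfn8 and Ifi204 rose after bleomycin (2.43% of all genes were called) and 4 were lower in Bleo_NVP than in Bleo_vehicle (5.56% of all genes). Ifi204, a DNA-binding protein of the p200 family, was at 5.73, 4.65 and 3.18 CPM in PBS_vehicle, 18.2, 10.1 and 9.28 in Bleo_vehicle and 2.37, 3.60 and 3.27 in Bleo_NVP (log2 1.39, edgeR adjusted p = 0.045, and -1.96, edgeR adjusted p = 0.012). Slfn8 differed by 1.61 (edgeR adjusted p = 0.042) and -1.61 (edgeR adjusted p = 0.033). Ifitm3, which blocks viral entry, was lower in Bleo_NVP by a log2 difference of -2.27 (edgeR adjusted p = 0.034), as was Lgals3bp by -1.48 (edgeR adjusted p = 0.038). Of 18 genes of the interferon-gamma response and antigen presentation, only the class I chain H2-D1 was called between Bleo_NVP and Bleo_vehicle (-0.82, edgeR adjusted p = 0.018), a share near that of all genes, from which nothing is read about the list. Whole-lung markers of interstitial macrophages summed to 77.3 to 204 plain CPM (CPM on library totals without TMM) in PBS_vehicle, 198 to 316 in Bleo_vehicle and 82.9 to 110 in Bleo_NVP, with 10 of 10 markers detected in each group. Their part in these results was tested only by leaving out immune nuclei, which gave 2 called members after bleomycin (Oasl2 and Rsad2) and 3 between Bleo_NVP and Bleo_vehicle (Oasl2, Rsad2 and Trim25, with Oas2 no longer called). The calls of Rsad2 rest on no more UMIs than those given above.

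As a share of all UMIs, the members' summed level overlapped between groups except for Bleo_vehicle and Bleo_NVP. In plain CPM it was 1009, 902 and 755 in PBS_vehicle, 1019, 881 and 806 in PBS_NVP, 1024, 1028 and 975 in Bleo_vehicle, and 789, 880 and 757 in Bleo_NVP. Bleo_vehicle lay above Bleo_NVP in every library and overlapped both PBS groups. With TMM library sizes the Bleo_vehicle values were 1090, 1058 and 954, all above the other 9 libraries, of which the highest was 918. When the levels of 11 classes were averaged with the same class weights in every library, the log2 ratio of the summed level went from 0.18 to 0.09 for Bleo_vehicle over PBS_vehicle and from -0.32 to -0.15 for Bleo_NVP over Bleo_vehicle. At that common mix Oasl2 went from 0.71 to 0.63 and from -0.80 to -0.58, and Rsad2 from 2.02 to 1.81 and from -3.83 to -3.34. Oas2 went from 1.41 to 0.92 and from -2.30 to -1.61. These ratios are descriptions without a test.

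Across classes, over all groups, the summed level was highest in interstitial macrophages or monocytes (1805 ± 387 plain CPM, SD, n = 12 libraries), general capillary (1704 ± 214) and venous endothelium (1623 ± 367, n = 12). Over all libraries it was lowest in smooth muscle (572 ± 130), AT2 (635 ± 118) and AT1 nuclei (671 ± 93.6, n = 12 each), but the order depended on the group. Ciliated nuclei had the lowest mean in PBS_vehicle (541), PBS_NVP (560) and Bleo_NVP (496), and stood at 1130 in Bleo_vehicle, where smooth muscle was lowest (552). The ranges of the 3 highest classes overlapped, as did those of the 3 lowest over all libraries, and the lowest capillary library (1378) was above the highest AT1 library (858).

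Single members had their own leading classes. Oasl2 was highest in mesothelial nuclei, which line the lung surface, at 208 ± 114 plain CPM (SD, n = 9 libraries), and its lowest mesothelial library (96.9) was above the highest library of the class with the next highest mean, general capillary (85.5). Single libraries of classes with lower means reached into the mesothelial range, up to 156 in arterial endothelium and 115 in aerocytes. Trim25 led in alveolar macrophages (480 ± 131, n = 12), with interstitial macrophages or monocytes next (367 ± 126, n = 12). It stood at 24.9 ± 7.87 in AT1 nuclei (n = 12). Oas2 led in interstitial macrophages or monocytes (40.0 ± 27.3, n = 12), Usp18 in ciliated nuclei (43.7 ± 21.9, n = 12) and Mx1 in dendritic nuclei (64.9 ± 47.0, n = 7, on 55 UMIs). Irf1 was highest in aerocytes, the capillary cells of gas exchange (82.5 ± 17.1, n = 12). Ifit2 had its highest levels in fibroblasts (30.8 ± 10.2, n = 12) and AT1 nuclei (28.5 ± 6.24, n = 12) and was at 1.36 ± 2.75 in ciliated nuclei (n = 12). For Trim25, Oas2, Usp18, Mx1, Irf1 and Ifit2 the libraries of the leading class overlapped those of the next.

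**Figure D3:**
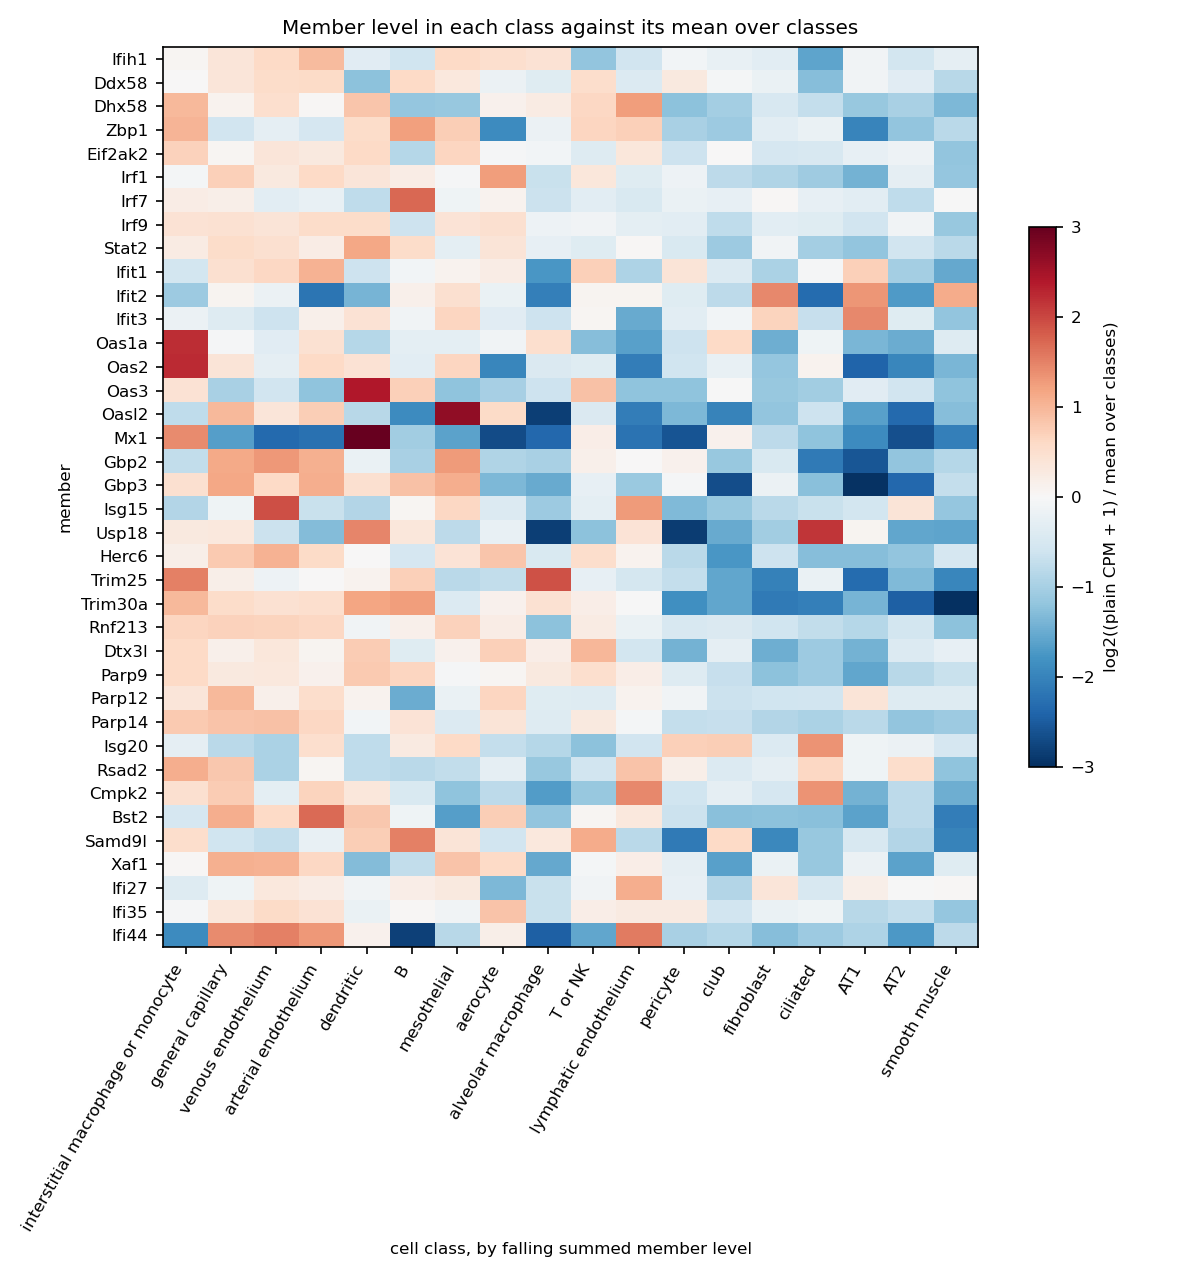
Level of each of the 38 members (rows, by role) in each of 18 classes (columns, by falling summed level), as log2 of (plain CPM + 1) over its mean across classes. Red is above and blue below that mean. Oasl2 in mesothelial, Trim25 in alveolar macrophage, Usp18 in ciliated and Mx1 in dendritic nuclei stand out, the last on 55 UMIs. Only Oasl2 of these was clear of the class with the next highest mean.

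Within airway epithelium the members' summed level was higher in every Bleo_vehicle library. In ciliated nuclei, which move mucus, it was 499, 638 and 485 plain CPM in PBS_vehicle, 507, 608 and 565 in PBS_NVP, 1456, 1077 and 856 in Bleo_vehicle and 519, 463 and 505 in Bleo_NVP. Without Trim25, which was high in the first Bleo_vehicle library, the Bleo_vehicle values were 904, 915 and 799 and no other library exceeded 558. In club nuclei, the secretory cells of the small airways, Bleo_vehicle stood at 1036, 821 and 998 and the other 9 libraries at 493 to 744.

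Within a class only members past the filter on low counts were tested, which was 11 of 38 in ciliated nuclei and 14 in club nuclei. Of these, 4 in ciliated nuclei (Parp9, Samd9l, Stat2 and Trim30a) and 1 in club nuclei (Ifi35) passed only through Bleo_vehicle. So did 4 of the 26 tested in fibroblasts (Bst2, Mx1, Usp18 and Zbp1), all with positive differences after bleomycin. The medians below therefore describe the tested members and support nothing. Between Bleo_vehicle and PBS_vehicle the members' median log2 difference was 0.91 in ciliated nuclei (all genes -0.032) and 0.61 in club nuclei (all genes -0.015), or 0.81 and 0.53 with plain totals. The medians were 0.41 in AT2, 0.33 in AT1, 0.18 in fibroblasts and 0.14 in alveolar macrophages. They were below 0 in the 6 other classes tested, among them general capillary (-0.15), venous endothelium (-0.20) and interstitial macrophages or monocytes (-0.39). Between Bleo_NVP and Bleo_vehicle the median was below 0 in 7 of 12 classes and was -1.14 in ciliated nuclei. Oasl2 was not tested there, at 122, 34.9 and 31.9 CPM in Bleo_vehicle and 3.41, 25.8 and 0 in PBS_vehicle.

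Immune markers moved with the same group in these airway nuclei. Those of interstitial macrophages summed to 24.3 to 65.6 plain CPM in ciliated nuclei of PBS_vehicle (5 of 10 at 0), 94.8 to 276 in Bleo_vehicle (none at 0) and 0 to 31.3 in Bleo_NVP (4 at 0). In club nuclei they summed to 10.7 to 26.7 in PBS_vehicle (6 of 10 at 0), 65.4 to 269 in Bleo_vehicle (none at 0) and 17.6 to 31.0 in Bleo_NVP (5 at 0). The part of immune RNA in the airway values was not tested.

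**Figure D4:**
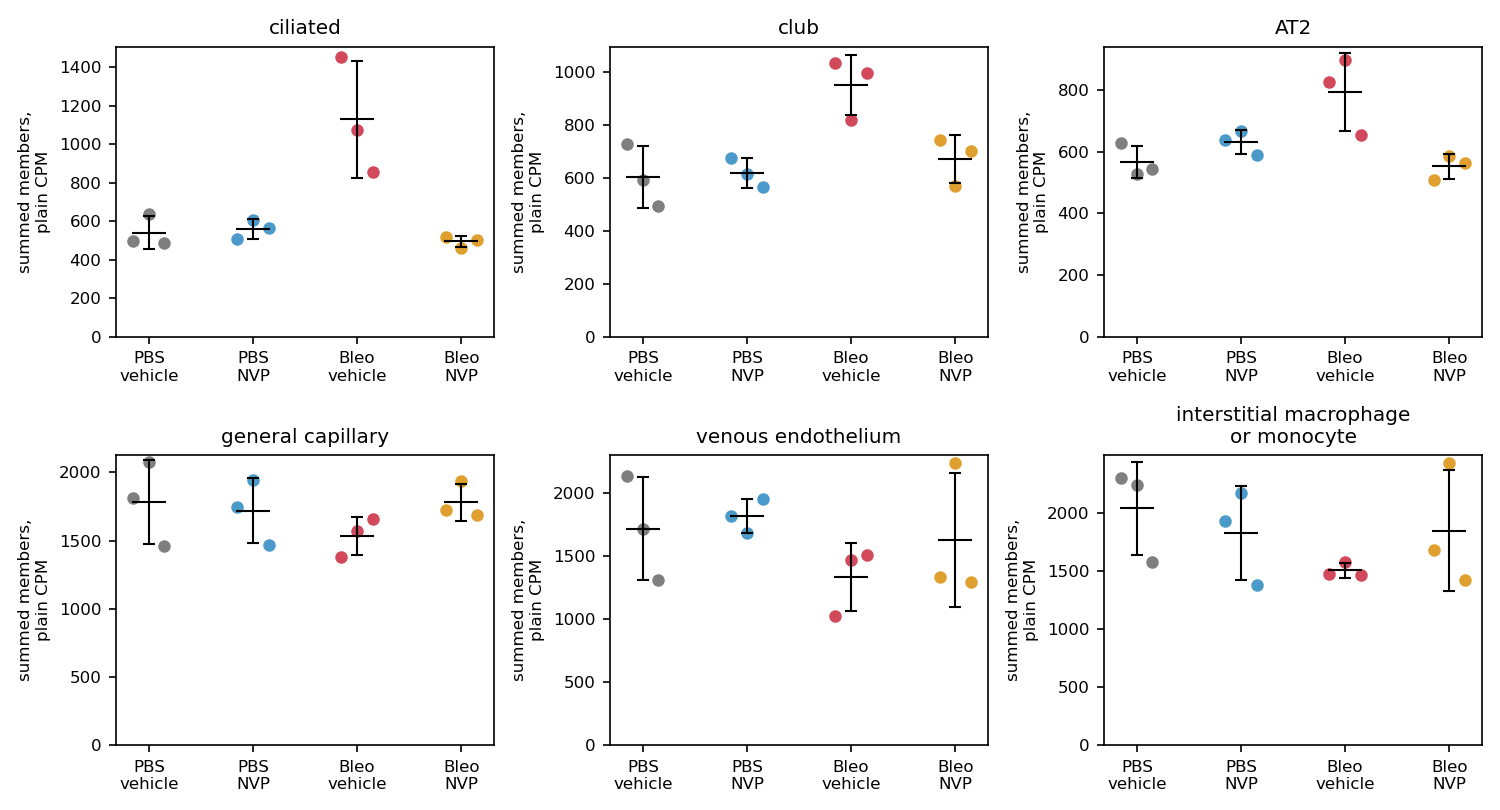
Summed member level in 6 classes, in plain CPM within the class, by group. Points are libraries and lines the mean ± SD of 3; ciliated and club nuclei of Bleo_vehicle lie above all other groups, whereas in interstitial macrophages or monocytes Bleo_vehicle stands at 1465 to 1582, within the range of the rest.

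Tested within classes, members were called no more often than genes at large, so nothing is read about them as a set. The calls fell in club nuclei and fibroblasts. Over 12 classes 166 member and class pairs were tested, and 2 were called between Bleo_vehicle and PBS_vehicle (2.64% of all gene and class pairs), 2 between Bleo_NVP and Bleo_vehicle (3.71%), and none in the comparisons of PBS_NVP with PBS_vehicle and of Bleo_NVP with PBS_NVP (0% in both). In these last 2, 1 and 5 member pairs had an unadjusted p under 0.05 by edgeR, and DESeq2 was not run within classes.

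Trim30a, a ligase that restrains inflammatory signalling, rose in club nuclei after bleomycin (1 of 14 members called, 1.84% of all genes in that class). Its level in club nuclei was 12.5, 11.2 and 13.6 CPM in PBS_vehicle, 22.5, 30.8 and 36.7 in PBS_NVP, 45.0, 33.9 and 46.6 in Bleo_vehicle and 21.1, 25.6 and 31.5 in Bleo_NVP. PBS_vehicle was below all other groups, on 9, 6 and 3 UMIs. The log2 change was 1.75 (SE 0.41, edgeR adjusted p = 0.027), and it was 1.5 and not called with the 1% mitochondrial limit (edgeR adjusted p = 0.167). The call also ended without any 1 of the 3 PBS_vehicle libraries, Bleo_vehicle 2 or Bleo_vehicle 3 (log2 1.54 to 1.90 over all omissions). In ciliated nuclei Trim30a stood at 11.9, 6.44 and 0 CPM in PBS_vehicle and 61.1, 66.5 and 42.2 in Bleo_vehicle (log2 2.73, SE 0.71, edgeR adjusted p = 0.059), having passed the filter only through Bleo_vehicle. Trim30a has close paralogs beside it on its chromosome, and its counts are uncertain to that extent.

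In fibroblasts Ifit2 fell after bleomycin and was higher again in Bleo_NVP. It was at 29.0, 40.6 and 41.3 CPM in PBS_vehicle, 28.8, 32.9 and 33.6 in PBS_NVP, 8.06, 17.2 and 21.7 in Bleo_vehicle and 35.0, 47.0 and 40.2 in Bleo_NVP. Each Bleo_vehicle library was below the 9 others. The change after bleomycin was -1.07 (SE 0.26, edgeR adjusted p = 0.028), where 1 of 26 members and 5.26% of all fibroblast genes were called. The difference of Bleo_NVP from Bleo_vehicle was 1.24 (SE 0.26, edgeR adjusted p = 0.013), where 2 of 26 members and 7.62% of genes were called. With the 1% mitochondrial limit these were -0.96 (edgeR adjusted p = 0.051) and 1.11 (edgeR adjusted p = 0.024). The first call ended without PBS_vehicle 2 or 3 or Bleo_vehicle 2, and the second without Bleo_NVP 2, with log2 values of -1.36 to -0.89 and 1.07 to 1.52 over all omissions.

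Trim25 (chr11:88999376-89020293, plus strand) was lower in Bleo_NVP than in Bleo_vehicle fibroblasts (-1.35, SE 0.36, edgeR adjusted p = 0.032). It was at 26.2, 27.6 and 23.9 CPM in PBS_vehicle, 24.9, 24.3 and 25.7 in PBS_NVP, 88.7, 46.1 and 24.7 in Bleo_vehicle and 17.5, 19.5 and 20.1 in Bleo_NVP. The third Bleo_vehicle library was at the PBS level, and without Bleo_vehicle 1 the difference was -0.85 and not called. Leaving out Bleo_vehicle 2 or any Bleo_NVP library also ended the call, at -1.31 to -1.40. With the 1% mitochondrial limit it was -0.85 (edgeR adjusted p = 0.081). Alveolar macrophage markers, the class in which Trim25 was highest, summed to 4.31 to 14.7 plain CPM in fibroblasts of PBS_vehicle (1 of 8 at 0), 44.3 to 61.1 in Bleo_vehicle (none at 0) and 2.92 to 8.89 in Bleo_NVP (5 at 0), and interstitial macrophage markers to 5.65 to 17.4 (3 of 10 at 0), 38.0 to 105 (none at 0) and 7.02 to 12.1 (3 at 0). Their part in the fibroblast results was not tested.

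**Figure D5:**
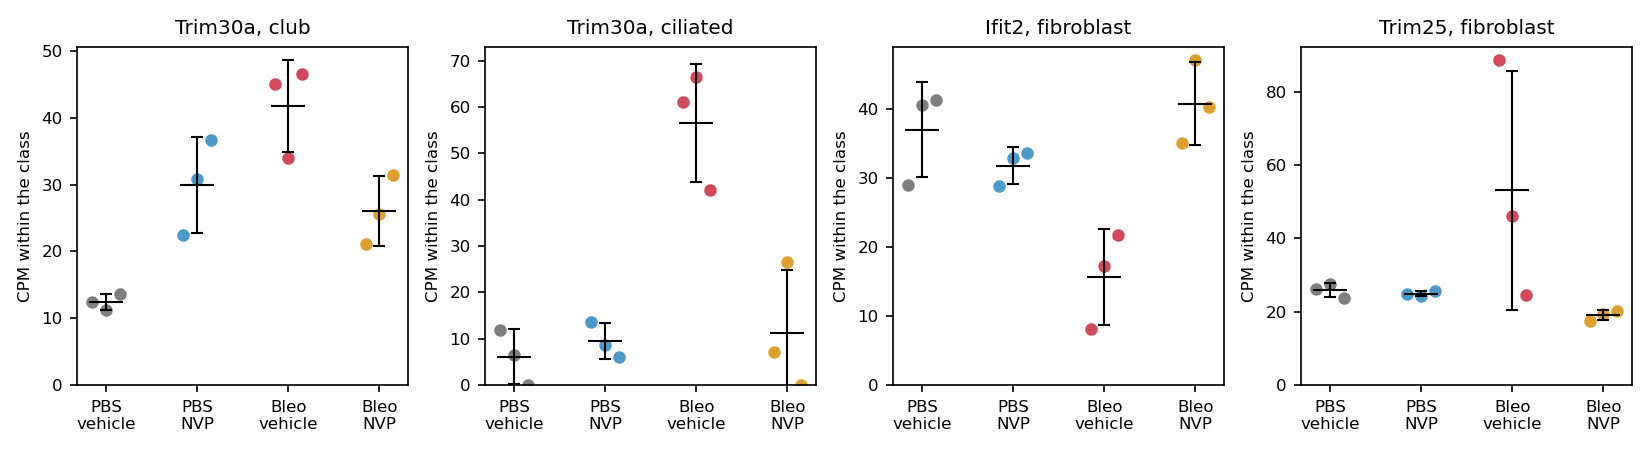
Level of a member within a class, in CPM (TMM-scaled within the class), by group, for the 3 called member and class combinations and for Trim30a in ciliated nuclei. Points are libraries and lines the mean ± SD of 3, cut at 0. In fibroblasts Ifit2 is lowest and Trim25 most spread in Bleo_vehicle.

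Next to these, Oasl2 in AT1 nuclei, the flat cells of gas exchange, was at 9.19, 4.95 and 6.57 CPM in PBS_vehicle, 10.8, 6.96 and 10.7 in PBS_NVP, 18.3, 17.9 and 12.7 in Bleo_vehicle and 6.27, 6.40 and 6.95 in Bleo_NVP. All Bleo_vehicle libraries were above the others. The log2 difference from PBS_vehicle was 1.12 (SE 0.32, edgeR adjusted p = 0.085) and that of Bleo_NVP from Bleo_vehicle -1.27 (SE 0.35, edgeR adjusted p = 0.056), and neither passed. This pair was chosen after its values were seen.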

How the data were processed

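Single-nucleus RNA sequencing was done by the authors on sorted nuclei of frozen lungs (10x 3′ chemistry, reads aligned to mm10 with Cell Ranger, version 7.0 in the submitters' processing notes). The deposited values are counts (UMIs per gene and barcode), neither normalized nor filtered on quality. The members, roles and pathway lists were chosen with earlier results of these data known.

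Nuclei needed 200 to 6000 genes and at most 5% mitochondrial UMIs (47319 passed), and 2708 (5.72%) were then removed as doublets. These had the highest scrublet scores of their library, and their number was fixed by library size (0.8% per 1000 nuclei). Counts were scaled to 10000 per nucleus, corrected by library with Harmony and clustered by the Leiden method (scanpy 1.11.5), with 121 genes, the members among them, left out. A class needed 3 markers, and 2409 nuclei stayed unnamed. UMIs were summed per library, or per library and class where it held at least 20 nuclei. The 12 sums were fitted with edgeR 4.0.16 (filterByExpr, TMM, robust quasi-likelihood test, two-sided, Benjamini-Hochberg over all genes), with DESeq2 1.42.0 as the alternative. The SE given with an edgeR value was worked back from its test, as the absolute log2 difference over the square root of the F statistic. Each library is 1 mouse. Replicate numbers paired PBS_vehicle with PBS_NVP by the data (deviations from group means, r from 0.69 to 0.90 in 3 pairs), while the labels state no pairing. In each comparison the called members were named, and where fewer than 5 were called, the 5 largest. The code was tested on simulated data. Coordinates are GENCODE M21 on GRCm38.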

Additional observations from a re-analysis of the deposited data

How the results depend on the processing

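No direction of the named changes reversed, and the whole-lung count of called members stayed within 1.5 times in 5 of 21 alternatives after bleomycin and in 11 of 21 between Bleo_NVP and Bleo_vehicle. For Bleo_vehicle against PBS_vehicle, where 1 member was called, there were 2 without immune nuclei, 4 with DESeq2, and 0 with plain library totals, with no filter on low counts, with only the 6 libraries compared, or with stricter nuclei (a minimum of 500 UMIs and a limit of 1% mitochondrial UMIs). Leaving out 1 library gave 0 to 4, the 4 without Bleo_vehicle 3. For Bleo_NVP against Bleo_vehicle, where 3 were called, DESeq2 gave 6 and the stricter nuclei 1, and leaving out 1 library gave 0 (without Bleo_NVP 1 or 2) to 10 (without Bleo_vehicle 3). For the interaction DESeq2 called 1, and omissions gave 0 to 2. Member and class pairs after bleomycin went from 2 to 12 with no filter, 7 with doublets kept and 0 with stricter nuclei, and omissions gave 0 to 11. Between Bleo_NVP and Bleo_vehicle they went from 2 to 4 with no filter, 4 with doublets kept and 1 with stricter nuclei, and omissions gave 0 to 14. The mean summed level of Bleo_vehicle went from 1009 to 950 with stricter nuclei. PBS_NVP against PBS_vehicle and Bleo_NVP against PBS_NVP gave 0 under every setting. Leaving out immune nuclei, plain totals, and TMM sizes for the summed level were chosen after seeing the data. The cause of these moves was not tested.

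Same-number libraries correlated above 0.1 in every pair for PBS_vehicle with PBS_NVP only, where the replicate block, fitted to all 12 libraries, left 0 members called. In the 5 other pairs of groups, 1 or 2 of 3 same-number pairs did (r from -0.21 to 0.55), so the numbers do not pair those samples. With the replicate block, 5 members were called after bleomycin, 8 between Bleo_NVP and Bleo_vehicle and 1 for the interaction, and 4 class pairs between Bleo_NVP and Bleo_vehicle. Members with few UMIs (Rsad2, Isg15, Oas3) are limited by depth.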
